A study of Mus musculus with 6 samples.

Results

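The ABC transporters are membrane proteins that spend ATP to move lipids, bile salts, drug conjugates, peptides and metal complexes across membranes. All genes with a symbol of the form Abc, a subfamily letter from a to g, and a number were taken, which gave 46 genes of the 34352 that carry a symbol in the deposited expression table. The choice used the symbol only and no measured value. Of the 46 genes, 30 passed the filter on low values (at least 1 FPKM, a read density adjusted for gene length and library total, in at least 3 of 6 libraries), and 16 did not.

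The livers came from wild-type C57BL/6 mice, labelled male and 6 to 8 weeks old at the start, that received 20 mg/kg of cadmium chloride (CdCl2) daily by gavage for 90 days, or 0 mg/kg for the same time. Each group had 3 libraries, and each of 3 labelled batches held 1 control and 1 cadmium library of the same number. Per the labels' protocols, fragments of liver RNA carrying m6A, N6-methyladenosine, were drawn off with an antibody. The libraries used here are labelled input, which the protocol describes as the unbound fragments, and whether an aliquot taken before the antibody is meant is not clear from it. If they hold the unbound fragments, a change in a gene's RNA and a change in the share of it bound by the antibody cannot be told apart in these values. The labels name 6 mice per group and do not say how they map to the 3 libraries, so the p-values measure only the spread between these libraries, which may be technical.

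In hepatocytes the ABC proteins divide the cell's exports by membrane. Those of the canalicular membrane secrete bile salts, phospholipid, sterols and glutathione conjugates into bile, and several of the ABCC subfamily send conjugates back to blood. Other members shuttle acyl-CoA into peroxisomes, serve iron and heme handling in mitochondria, or, as soluble proteins without membrane domains, act on ribosomes. Transport of glutathione-bound cadmium by a protein of the ABCC subfamily is known from yeast.

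The libraries held 42115960 to 68587128 reads, recovered from the deposited log2 values. The female-specific RNA Xist stood at 19.7 to 35.5 FPKM in all 6, and the Y-linked genes Ddx3y, Eif2s3y, Kdm5d and Uty did not exceed 6.76e-05 FPKM, which goes against the label male. Control replicate 1 and cadmium replicate 2 stood apart from the other libraries: mitochondrial ribosomal RNA made up 0.265% and 0.277% of their reads against 0.782% to 1.18% elsewhere, and Alb, the albumin gene, was at 10244 and 10130 FPKM against 17185 to 17899. All 8 listed markers of hepatocytes were tested, and none was called different between the groups.

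The promoters of Abca2 and Abca8b, which were called higher with cadmium, are shown with that of Abcb10, which lay lower in every cadmium library but was not called (adjusted p = 0.267). That of Abcb1a, the gene called lower, is not shown, since its RefSeq start lies 92986 bases from its annotated gene start. Each is the 250 bases before the RefSeq transcription start on the gene's own strand, in build GRCm38.p6 (mm10), and none of the 3 windows overlaps an annotated exon. They lie at chr2:25428349-25428598 on the plus strand for Abca2, at chr11:109995846-109996095 on the minus strand for Abca8b and at chr8:123983123-123983372 on the minus strand for Abcb10. Capitals mark matches on either strand to TGCACNC or TGCGCNC, the core of the metal response element that the zinc- and cadmium-responsive factor MTF1 is known to bind, and in Abca8b to the GC box GGGCGG.
Abca2: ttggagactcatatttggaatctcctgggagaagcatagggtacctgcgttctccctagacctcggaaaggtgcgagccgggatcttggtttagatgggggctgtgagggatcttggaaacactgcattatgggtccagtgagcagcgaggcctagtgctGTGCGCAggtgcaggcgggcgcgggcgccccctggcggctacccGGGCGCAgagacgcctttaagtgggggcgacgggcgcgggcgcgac
Abca8b: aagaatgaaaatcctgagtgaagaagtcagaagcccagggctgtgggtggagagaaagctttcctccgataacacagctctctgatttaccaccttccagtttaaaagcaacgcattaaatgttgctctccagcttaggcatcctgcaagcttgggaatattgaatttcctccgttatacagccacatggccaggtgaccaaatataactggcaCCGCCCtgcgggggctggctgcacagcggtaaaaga
Abcb10: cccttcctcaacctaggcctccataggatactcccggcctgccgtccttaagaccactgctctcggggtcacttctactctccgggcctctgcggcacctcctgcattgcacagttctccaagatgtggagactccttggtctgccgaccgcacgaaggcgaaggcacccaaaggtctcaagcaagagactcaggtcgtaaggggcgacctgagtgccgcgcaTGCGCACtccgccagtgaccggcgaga

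Abca2 held 2 metal response element cores, Abcb10 held 1 and Abca8b held none in these windows. Over all ABC genes, 34 matched a RefSeq promoter entry in 41 windows, and 10 of the 41 (24.4%) held the core, against 21.5% of 32536 promoters of the same length. The GC box stood in 48.8% of ABC windows and 33% of all promoters, and the E-box CACGTG in 9.76% and 6.04%. The antioxidant response core TGACNNNGC was in 9.76% and 10.2%, the nuclear receptor motif AGGTCA in 17.1% and 14%, and the CCAAT box in 26.8% and 33.8%. These matches are letters in a window and say nothing about binding.

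Few ABC genes passed the test. With limma on log2(FPKM + 1), fitted over 9908 genes and called at an adjusted p of 0.05, 3 ABC genes were higher in cadmium livers (Abca2, Abca8b and Abcg1) and 1 was lower (Abcb1a). The background was 7.86% of all genes called higher and 1.82% called lower, 9.68% in either direction, and 4 of 30 ABC genes is near that background, so the count is not a result about the family. Unadjusted p was at most 0.05 for 7 of the 30, and for 27% of all genes tested. In 6 genes every cadmium library lay above every control and in 6 every one lay below, while 18 overlapped; over all genes tested, the groups did not overlap in 33.6% (26.4% above and 7.24% below).

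The median log2 fold change of the 30 genes was 0.025, against 0.090 over all genes tested, with 16 above 0 and 14 below. The deposited log2 values are scaled differently, by a size factor per library, and shift the median of all genes by more than 0.1, to -0.061. On that scale the ABC median was -0.15, with 10 genes above 0 and 20 below, and the groups did not overlap in 3 genes above and 9 below (11.8% and 19.2% of all genes, 31% in either direction). There limma called 1 ABC gene higher, Abcg1, and 3 lower, Abcb1a, Abcc2 and Abcf2, beside 3.85% and 4.98% of all genes (8.82% in either direction). With the labelled batch as a replicate block, limma on log2(FPKM + 1) called none of the 30 in either direction, beside 2.5% of all genes called (1.86% higher and 0.646% lower). There 7 of the 30 had an unadjusted p of at most 0.05, against 25.2% of all genes. Where the deposited log2 scale changes the call of an ABC gene, both values are given below.

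**Figure D1:**
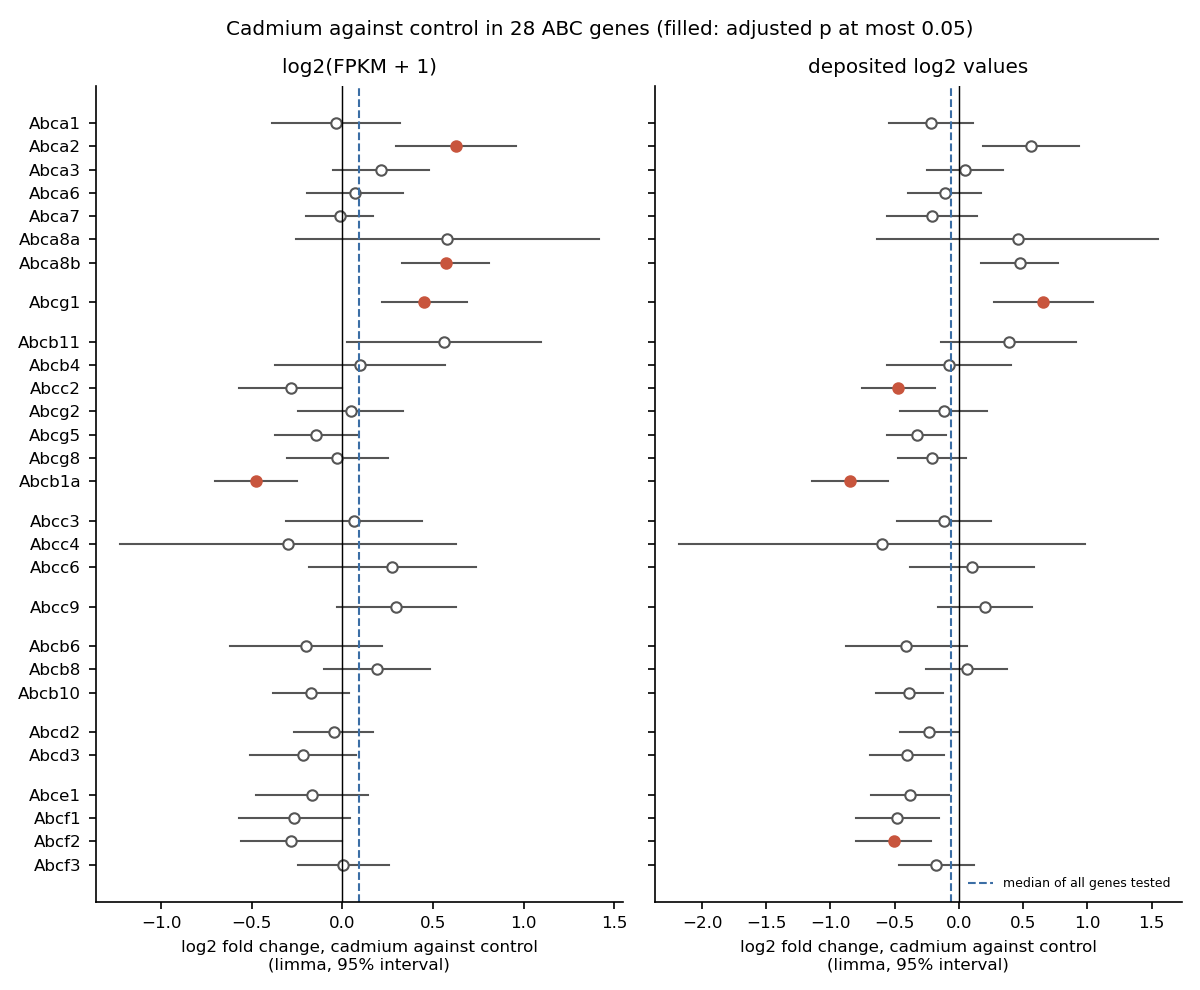
Log2 fold change of cadmium against control for 28 tested ABC genes, on log2(FPKM + 1) at left and on the deposited log2 values at right, with 95% intervals from limma; filled points had an adjusted p of at most 0.05 and the dashed line is the median of all genes tested. Abca2, Abca8b and Abcg1 lie above 0 and Abcb1a below 0 on both scales, Abca2 and Abca8b are filled only at left, and Abcc2 and Abcf2 only at right.

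By level, the liver's ABC genes spanned a wide range. Abcb11, the bile salt export pump, was highest with a mean of 79.7 FPKM over the 6 libraries, then Abcc3, an exporter of glucuronides to blood, at 63.1, Abcc2, the exporter of conjugates to bile, at 53.9, and Abcd3, a peroxisomal acyl-CoA transporter, at 45.2 FPKM. Together with Abca6, Abcc6, Abcg8, Abca1 and Abcg5 these made up the 9 genes with a mean of at least 20 FPKM. At the other end, Abca4, Abca12, Abca13, Abca14, Abcc8, Abcc12 and Abcg4 stayed under 0.1 FPKM in every library. Those 7 include the photoreceptor, skin and pancreatic beta cell members of the family, and none of the 46 was listed at 0 in all 6 libraries.

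**Figure D2:**
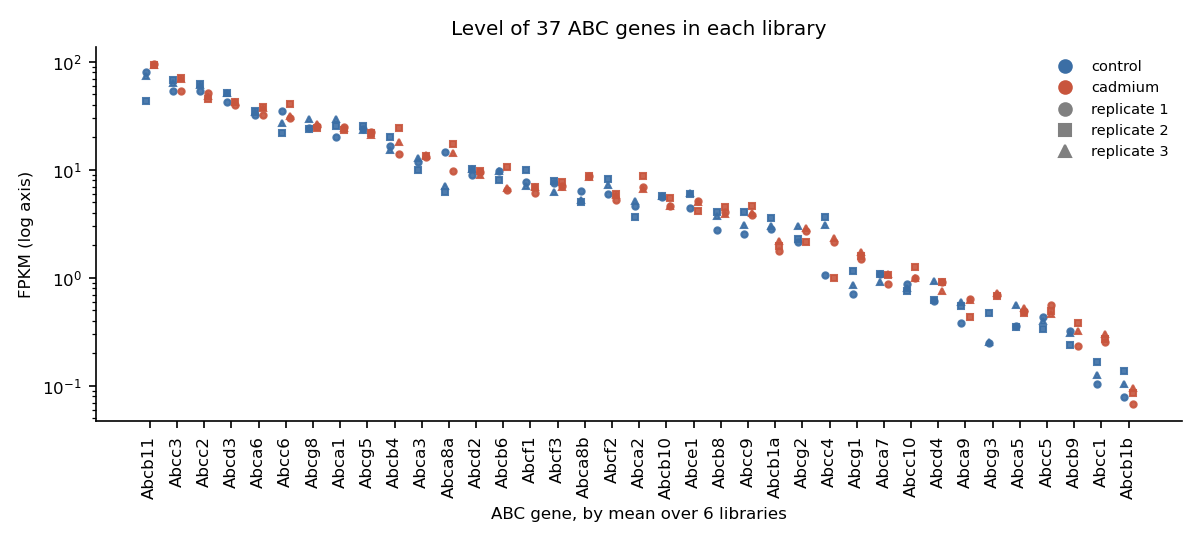
FPKM on a log axis for 37 ABC genes with at least 0.05 FPKM in every library, ordered by the mean over all 6 libraries; each point is 1 library, blue for control and red for cadmium, with the shape giving the replicate number. The bile salt pump Abcb11 is highest, and for most genes the libraries of both groups lie on top of each other.

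Among the 13 members of the ABCA subfamily, whose proteins mostly move phospholipids and sterols, 7 were tested, 2 rose and none fell, beside 7.86% and 1.82% of all genes. None of the 7 was called with the replicate block, nor on the deposited log2 scale. Abca2, a lipid transporter of endosomes and lysosomes best known from brain (chromosome 2, 25428703 to 25448540), read 4.62, 3.62 and 5.13 FPKM in control replicates 1 to 3. It read 6.89, 8.79 and 6.63 FPKM in cadmium replicates 1 to 3. Every cadmium library lay above every control, and cadmium replicate 2 was highest. The mean rose from 4.46 ± 0.765 to 7.43 ± 1.18 FPKM (SD, n = 3; log2 fold change 0.63, SE 0.14, adjusted p = 0.0369). On the deposited log2 values the log2 fold change was 0.56 and not called (adjusted p = 0.0686). The call did not hold with the batch as a replicate block (adjusted p = 0.113), nor without any 1 of the 6 libraries (0.0582 to 0.0923), nor without control replicate 1 and cadmium replicate 2 together (0.0949).

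Abca8b, a lipid exporter of the plasma membrane (chromosome 11, 109932190 to 109995845), read 6.41, 5.02 and 5.25 FPKM in the controls and 8.84, 8.68 and 8.56 FPKM in the cadmium libraries. The cadmium libraries lay close together and above all controls. Its mean rose from 5.56 ± 0.745 to 8.70 ± 0.140 FPKM (SD, n = 3; log2 fold change 0.57, SE 0.10, adjusted p = 0.0203). It was 0.47 and not called on the deposited log2 values (adjusted p = 0.0591). With the replicate block the adjusted p was 0.0584. By batch, the difference of Abca8b was 0.41, 0.69 and 0.61 on the log2(FPKM + 1) scale. The shared sign follows from groups that do not overlap and adds no support. Without the 2 libraries that stood apart, the call held (log2 fold change 0.66, adjusted p = 0.0226). The call was lost in 4 of 6 fits that left out 1 library (adjusted p = 0.0503 to 0.0865), those without control replicates 2 and 3 and without cadmium replicates 1 and 3.

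Abca8b sits in a cluster of related genes on chromosome 11, in the order Abca8b, Abca8a, Abca9, Abca6 and Abca5, from 109932190 to 110337716, and close paralogs such as Abca8a and Abca8b can share reads. Its neighbours did not pass the test. Abca8a read 14.5, 6.18 and 7.13 FPKM in the controls and 9.66, 17.4 and 14.3 FPKM in cadmium (adjusted p = 0.337), and control replicate 1 lay within the cadmium range. Abca6, the most abundant ABCA gene, read 32.5, 35.2 and 34.6 FPKM against 32.6, 38.0 and 37.03 FPKM (adjusted p = 0.753). Abca9 and Abca5 did not exceed 0.634 FPKM in any library and were not tested. The ratio of Abca8b to Abca8a within a library was 0.664 ± 0.195 in controls and 0.670 ± 0.218 in cadmium (SD, n = 3), so the ratio moved far less than its spread.

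Abca1, which loads cholesterol onto apolipoprotein A-I to start HDL, read 20.0, 25.5 and 29.7 FPKM in controls and 24.7, 23.3 and 24.3 FPKM in cadmium, with the cadmium libraries inside the control range. Its log2 fold change was -0.037 (95% interval -0.39 to 0.32, adjusted p = 0.906). Abca3, the lamellar body phospholipid transporter of lung, read 11.8, 9.91 and 12.9 FPKM against 13.3, 13.4 and 13.6 FPKM, above all controls but not called (adjusted p = 0.279). Abca7, a relative of Abca1, stayed between 0.876 and 1.09 FPKM and overlapped. On the deposited log2 scale the groups of Abca3 overlapped too, and only Abca2 and Abca8b of the subfamily kept apart. There 11.8% of all genes tested lay above every control.

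In the ABCG subfamily, Abcg1 rose, and it exports cholesterol to HDL and is best known from macrophages (chromosome 17, 31057675 to 31117988). It read 0.711, 1.15 and 0.867 FPKM in the controls and 1.48, 1.60 and 1.73 FPKM in cadmium. All cadmium libraries lay above all controls, and the gene passed the filter on low values through those 3 libraries and control replicate 2, so its place among tested genes depended on the group where it was high. The mean rose from 0.911 ± 0.225 to 1.60 ± 0.127 FPKM (SD, n = 3; log2 fold change 0.45, SE 0.10, adjusted p = 0.0356). With the replicate block the adjusted p was 0.0721, and without control replicate 1 and cadmium replicate 2 together it was 0.111. Of the fits leaving out 1 library, the call held only without control replicate 2 (0.0314) and was lost in the other 5, at 0.0660 to 0.137.

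Abcg1 rose beside genes of other cell types, with 7.86% of all genes called higher as background. Of 8 tested markers of Kupffer cells and macrophages 3 rose (Adgre1, Cd68 and Lyz2), and the summed level of all 10 listed was 34.5 to 57.7 FPKM in controls and 69.1 to 80.9 in cadmium. Of 8 tested markers of stellate cells and fibroblasts 7 rose (Col1a1, Col1a2, Col3a1, Lrat, Pdgfrb, Reln and Lum), with sums of 13.9 to 21.5 and 33.4 to 38.2 FPKM over all 10. Col1a1, Col1a2 and Lum reached 1 FPKM in the 3 cadmium libraries and in no control, so they were tested only through the group where they were high. Of 8 endothelial markers 1 rose (Lyve1), with sums of 22.9 to 33.1 and 31.4 to 40.1 FPKM. With the replicate block 2 macrophage, 3 stellate and none of the endothelial markers were called. On the deposited log2 values 3 macrophage and 6 stellate markers were called higher, without Reln (adjusted p = 0.0693), and Lyve1 was not called (0.0588). The part of these cells in the rise of Abcg1, Abca2 and Abca8b was not tested, and in bulk liver more cells of a type and more RNA per cell cannot be told apart.

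**Figure D3:**
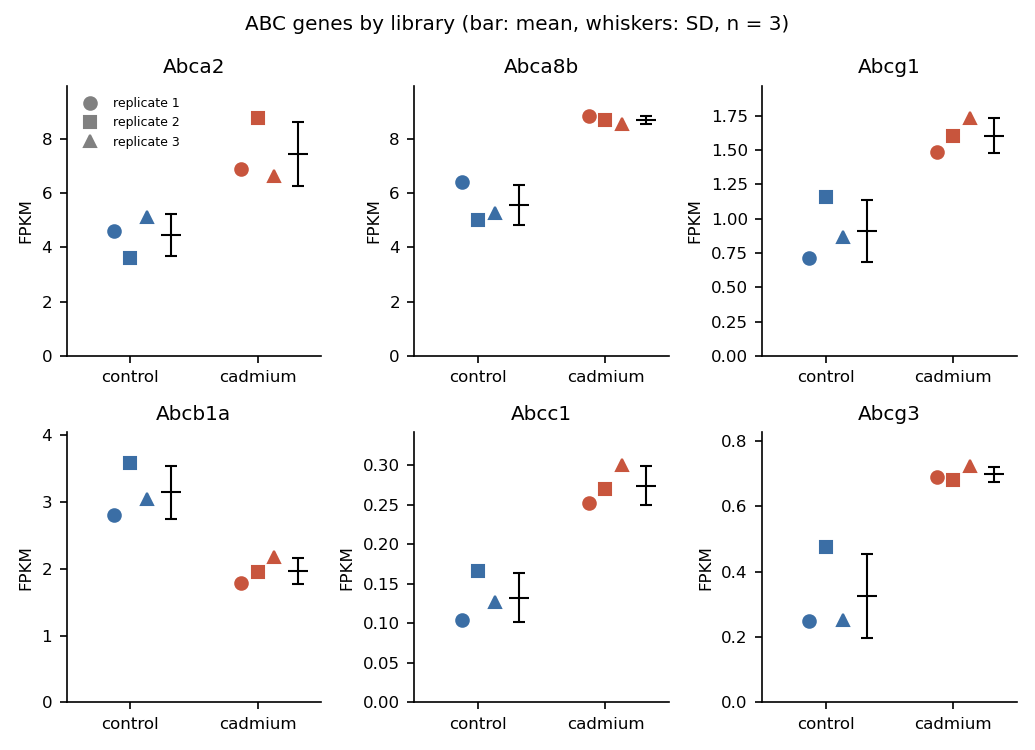
FPKM of 6 ABC genes in each of 3 control and 3 cadmium libraries, with shapes for the replicate number and the mean and SD beside each group. Abca2, Abca8b, Abcg1, Abcc1 and Abcg3 lie higher and Abcb1a lower in every cadmium library than in every control.

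The other tested ABCG genes were not called. Abcg5 and Abcg8, whose proteins pair to secrete cholesterol and plant sterols into bile, overlap on chromosome 17 (84658234 to 84683011 and 84676302 to 84700333). Abcg5 read 24.0, 25.4 and 23.6 FPKM in controls and 22.6, 21.9 and 21.2 FPKM in cadmium, below every control. Its log2 fold change was -0.14 (adjusted p = 0.396), or -0.33 on the deposited log2 values (adjusted p = 0.0783). Abcg8 read 24.7, 24.0 and 29.6 FPKM against 25.4, 24.5 and 26.6 FPKM, with the groups mixed (adjusted p = 0.914). The ratio of Abcg5 to Abcg8 was 0.942 ± 0.134 and 0.861 ± 0.0526 (SD, n = 3; two-sided exact permutation p = 0.5, where 3 against 3 cannot go below 0.1). Abcg2, an exporter of urate, porphyrins and drugs, read 2.16, 2.31 and 3.00 FPKM against 2.73, 2.15 and 2.91 FPKM and overlapped (adjusted p = 0.853).

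Of the 8 genes for export across the canalicular membrane, 7 were tested, none rose and 1 fell, beside 7.86% and 1.82% of all genes. That gene was Abcb1a, which encodes a P-glycoprotein that pumps drugs and other hydrophobic compounds (chromosome 5, 8660077 to 8748575). It read 2.80, 3.58 and 3.04 FPKM in controls and 1.79, 1.95 and 2.18 FPKM in cadmium, with every cadmium library below every control. The mean fell from 3.14 ± 0.398 to 1.97 ± 0.195 FPKM (SD, n = 3; log2 fold change -0.48, SE 0.098, adjusted p = 0.0284). The fall was larger on the deposited log2 values, at -0.85 (adjusted p = 0.00686). With the replicate block on log2(FPKM + 1) the adjusted p was 0.0668, and without the 2 libraries that stood apart it was 0.0513.

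By batch, the difference of Abcb1a was -0.45, -0.64 and -0.35 on the log2(FPKM + 1) scale. The shared sign follows from groups that do not overlap and adds no support. Of the fits leaving out 1 library, the call held only without control replicate 1 (adjusted p = 0.0301) and was otherwise 0.0620 to 0.0941. Abcb1b, the other P-glycoprotein gene of mouse and its neighbour, had only 30 to 70 reads per library at 0.0677 to 0.138 FPKM, and its groups overlapped. The close sequence of Abcb1a, Abcb1b and Abcb4, which lie side by side on chromosome 5, can split reads among them. Abcb4, the phosphatidylcholine floppase of the canalicular membrane, read 16.7, 20.0 and 15.3 FPKM in controls and 14.2, 24.7 and 18.0 FPKM in cadmium, with the controls inside the cadmium range (adjusted p = 0.801).

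Abcb11 was higher in every cadmium library without passing the test. It read 79.8, 43.1 and 73.8 FPKM in controls and 95.6, 93.1 and 92.8 FPKM in cadmium. The cadmium libraries lay close together, and control replicate 2 lay far below the other controls. The log2 fold change was 0.56 with a 95% interval of 0.024 to 1.09 (adjusted p = 0.169), and on the deposited log2 values it was 0.39 with an interval of -0.14 to 0.91, where the groups overlapped.

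Abcc2, which secretes bilirubin glucuronides and glutathione conjugates into bile, was not called on log2(FPKM + 1). It read 54.1, 63.1 and 60.9 FPKM in controls and 51.7, 45.6 and 48.2 FPKM in cadmium, below every control. Its log2 fold change was -0.29 with an interval of -0.57 to -0.0031 (adjusted p = 0.181), and -0.47 on the deposited log2 values, where it was called (adjusted p = 0.0494).

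**Figure D4:**
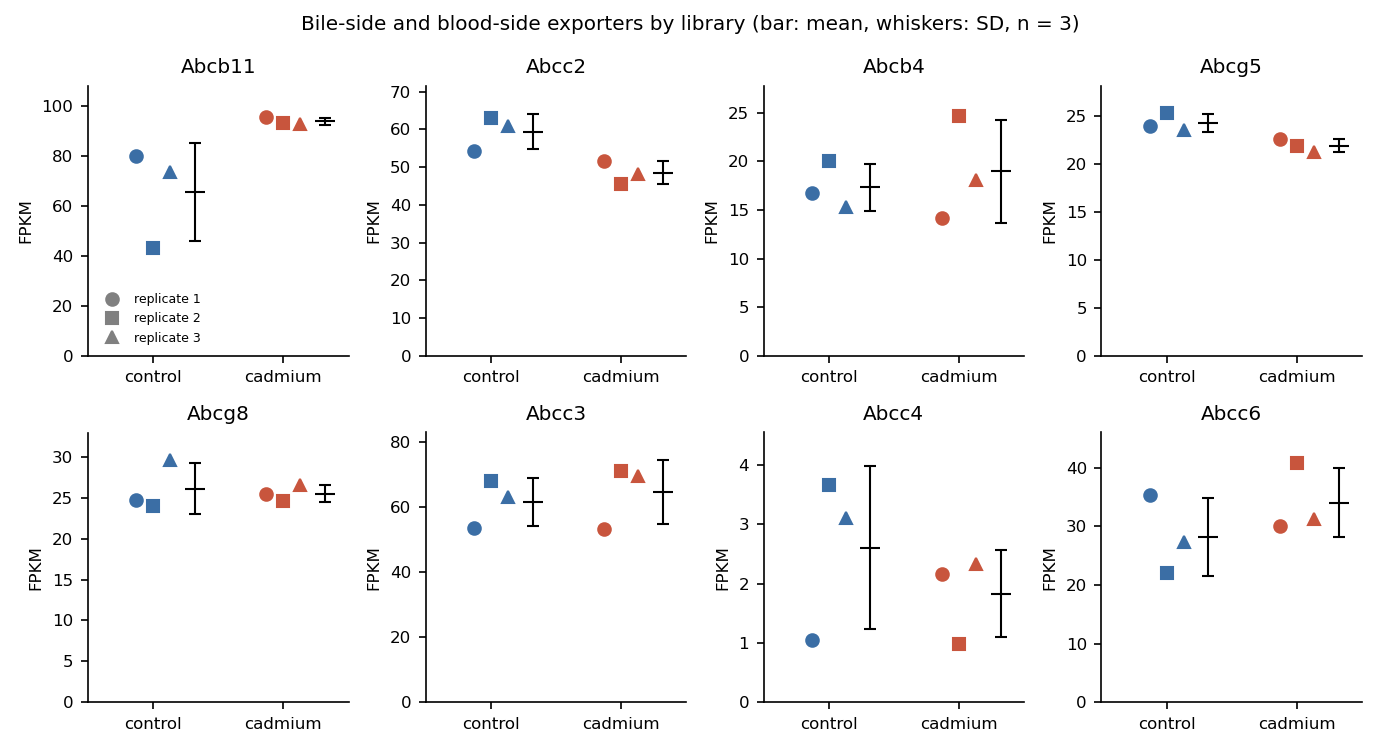
FPKM of 8 exporters of the bile-facing and blood-facing membranes in each library, with the mean and SD beside each group and shapes for the replicate number; each axis starts at 0. Abcb11 lies above and Abcc2 and Abcg5 lie below the controls in every cadmium library, and the other 5 overlap.

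Among the 7 genes of the basolateral and other ABCC exporters, 3 were tested and none was called. Abcc3 read 53.5, 68.0 and 63.2 FPKM against 53.4, 70.9 and 69.4 FPKM, and both groups covered the same range (adjusted p = 0.841). Abcc6, which lets out the ATP from which the mineralization inhibitor pyrophosphate is formed, read 35.3, 22.0 and 27.3 FPKM against 30.0, 40.8 and 31.3 FPKM (adjusted p = 0.417). Abcc4, an exporter of cyclic nucleotides and conjugates to blood, read 1.05, 3.67 and 3.10 FPKM against 2.16, 0.989 and 2.34 FPKM (adjusted p = 0.659). Its low libraries were control replicate 1 and cadmium replicate 2, the pair with little mitochondrial ribosomal RNA. Without that pair its log2 fold change was -0.43 (adjusted p = 0.0690), against -0.30 with all 6 libraries, and the part of that pair in its spread was not otherwise tested.

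Abcc1, the multidrug resistance protein that exports glutathione conjugates, was too low for the FPKM filter. It read 0.104, 0.166 and 0.127 FPKM in controls and 0.252, 0.270 and 0.300 FPKM in cadmium (chromosome 16, 14361558 to 14475737), with every cadmium library above every control and 104 to 365 reads per library. A limma-voom fit on the recovered reads, which took in 39 of the 46 ABC genes, called it higher (log2 fold change 0.88, SE 0.20, adjusted p = 0.0373), against 2.62% of 18655 genes called higher and 2.23% lower there, 4.85% in either direction. With the replicate block the adjusted p was 0.0702, and of the fits leaving out 1 library only that without control replicate 2 kept it (0.0427), the others giving 0.0627 to 0.153. The same voom fit called Abcb1a lower (log2 fold change -0.84, adjusted p = 0.00879, and 0.0211 with the replicate block) and no other ABC gene.

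Abcg3, a rodent member of the sterol transporter subfamily (chromosome 5, 104935057 to 104982718), read 0.249, 0.474 and 0.253 FPKM in controls and 0.691, 0.679 and 0.724 FPKM in cadmium. Its cadmium libraries lay close together above all controls, on 48 to 205 reads per library. The voom log2 fold change was 0.97 (SE 0.26, adjusted p = 0.0588), just short of the threshold. Of the 16 members under the filter the voom fit took in 9, of which Abcc1 alone passed, and the 7 that stayed under 0.1 FPKM were not tested there. Abcc5, an exporter of cyclic nucleotides, was at 0.390 ± 0.0525 and 0.506 ± 0.0508 FPKM and Abcc10, a drug exporter, at 0.814 ± 0.0605 and 1.08 ± 0.158 FPKM (SD, n = 3), with voom adjusted p of 0.584 and 0.467. Of the lysosomal members, Abcb9, a peptide transporter, stayed between 0.233 and 0.382 FPKM and Abcd4, which serves vitamin B12 release, between 0.610 and 0.936 FPKM, and in both the groups overlapped.

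Abcc9, the sulfonylurea receptor subunit of potassium channels in muscle and vessel walls, was the tested one of its pair. It read 2.55, 4.05 and 3.08 FPKM in controls and 3.79, 4.67 and 3.99 FPKM in cadmium (adjusted p = 0.224), and control replicate 2 lay inside the cadmium range. Its channel partner Kcnj8 read 1.14, 1.06 and 0.952 FPKM against 1.22, 1.68 and 1.44 FPKM, apart but not called (adjusted p = 0.129). Abcc8, the pancreatic receptor, did not exceed 0.00278 FPKM.

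Of the mitochondrial ABC genes, Abcb6, Abcb8 and Abcb10 were not called. Abcb6, a porphyrin-related transporter, read 9.72, 7.98 and 9.74 FPKM in controls and 6.48, 10.6 and 6.80 FPKM in cadmium, with cadmium replicate 2 highest of all (adjusted p = 0.518). Abcb8, a transporter of the inner membrane, stayed between 2.78 and 4.49 FPKM (adjusted p = 0.378). Abcb10, which serves heme synthesis (chromosome 8, 123952459 to 123983122), read 5.65, 5.72 and 5.71 FPKM against 4.67, 5.54 and 4.64 FPKM, below every control. Its log2 fold change was -0.17 (adjusted p = 0.267), or -0.39 on the deposited log2 values (adjusted p = 0.0696). It overlaps Gm20388 on the other strand, and whether counting used strand is not given in the sources used here. Of the 46 ABC genes, 25 overlap another annotated gene on either strand. Among them are Abca2, Abca8b, Abcg1 and Abcb1a, the genes called on log2(FPKM + 1).

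Beside them, 1 of 11 tested genes of iron-sulfur cluster and heme synthesis fell and none rose, against 1.82% and 7.86% of all genes. On the deposited log2 values 3 were called lower, against 4.98% of all genes, with Cpox and Slc25a38 added (adjusted p = 0.0333 and 0.0403). The first was Alas1, the rate-limiting enzyme of liver heme synthesis, at 115 ± 13.5 and 10.3 ± 6.98 FPKM (SD, n = 3; log2 fold change -3.54, adjusted p = 0.0114, and 0.0349 with the replicate block).

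Abcd2 and Abcd3 bring acyl-CoA into peroxisomes and were not called. Abcd3 read 42.6, 51.9 and 51.9 FPKM in controls and 39.5, 42.6 and 42.8 FPKM in cadmium. Control replicate 1 lay among the cadmium libraries in FPKM (adjusted p = 0.312). On the deposited log2 values every cadmium library lay below every control, without a call (log2 fold change -0.40, adjusted p = 0.0846). Abcd2 read 8.92, 10.3 and 10.1 FPKM against 9.52, 9.70 and 8.99 FPKM (adjusted p = 0.792). Its groups overlapped in FPKM and not on the deposited log2 values, where it was lower without a call (log2 fold change -0.23, adjusted p = 0.189). Of 13 tested genes of peroxisomal oxidation and import none was called on log2(FPKM + 1), and 1, the thiolase Acaa1b, was called lower on the deposited log2 values (adjusted p = 0.0355).

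Ratios of a pair of ABC genes within a library were taken as a description, since the pairs were chosen after the values were seen. None of 6 ratios passed a test, 5 are given, and 2 of these did not overlap between groups. Abcb11 over Abcc2 was 1.12 ± 0.403 in controls and 1.94 ± 0.0962 in cadmium (SD, n = 3), and Abcb1a over Abcb4 was 0.182 ± 0.0161 and 0.109 ± 0.0258. Each had a two-sided exact permutation p of 0.1, the smallest that 3 against 3 allows, and an adjusted p of 0.2 over the 6 ratios. Abcc3 over Abcc2 was 1.03 ± 0.0451 and 1.34 ± 0.274 and overlapped (exact permutation p = 0.3). A ratio of FPKM within a library does not depend on how libraries are scaled.

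**Figure D5:**
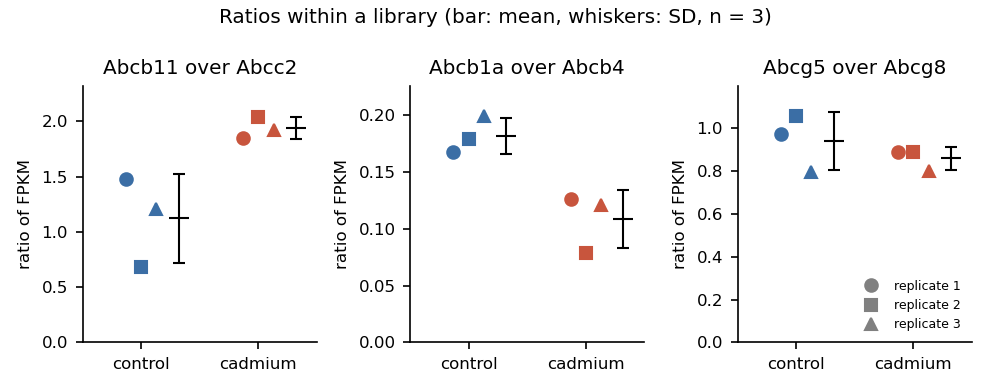
Ratio of the FPKM of 2 ABC genes within each library for 3 of the pairs, with the mean and SD beside each group and each axis starting at 0. Abcb11 over Abcc2 lies higher and Abcb1a over Abcb4 lower in every cadmium library, and Abcg5 over Abcg8 overlaps.

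None of the 4 soluble ABC proteins of translation was called on log2(FPKM + 1), and 2 of them, Abcf1 and Abcf2, lay below every control in every cadmium library. Over all genes tested, 7.24% lay below in that way. Abcf2 read 6.01, 8.25 and 7.21 FPKM in controls and 5.22, 5.98 and 5.80 FPKM in cadmium, just below the lowest control (log2 fold change -0.28, interval -0.56 to -0.0046, adjusted p = 0.179). It was called on the deposited log2 values (log2 fold change -0.51, adjusted p = 0.0445). Abcf1, which acts in translation initiation, read 7.64, 10.1 and 7.14 FPKM against 6.12, 6.92 and 6.96 FPKM, also below every control (adjusted p = 0.245).

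Abce1, which splits ribosomes after termination, read 4.40, 6.02 and 6.07 FPKM against 5.14, 4.15 and 4.99 FPKM and overlapped (adjusted p = 0.469). On the deposited log2 values its cadmium libraries lay below every control, without a call (log2 fold change -0.38, adjusted p = 0.116). On that scale 19.2% of all genes tested lay below every control. Abcf3 read 7.54, 7.94 and 6.24 FPKM against 7.07, 7.74 and 6.93 FPKM (adjusted p = 0.983). Of 9 tested partners in ribosome recycling and translational control 1 fell and none rose, against 1.82% and 7.86% of all genes. On the deposited log2 values 2 were called lower, against 4.98% of all genes, with Zfp598 added at an adjusted p of 0.0393. The gene that fell was Pelo, which works with Abce1 on stalled ribosomes. It went from 5.82 ± 0.446 to 4.04 ± 0.406 FPKM (SD, n = 3, limma adjusted p = 0.0355, and 0.0643 with the replicate block).

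Of the ABC proteins whose symbols do not begin with Abc, Tap1, a subunit of the peptide transporter for MHC class I, rose from 2.28 ± 0.510 to 5.06 ± 1.15 FPKM (SD, n = 3; log2 fold change 0.88, adjusted p = 0.0228, and 0.0901 with the replicate block). Its partner Tap2 read 5.21, 4.56 and 4.25 FPKM in controls and 5.22, 8.19 and 6.58 FPKM in cadmium (adjusted p = 0.124). Cftr, the chloride channel of the family, did not exceed 0.0780 FPKM.

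A few genes that share pathways with the sterol exporters passed the test, beside 7.86% of all genes called higher and 1.82% called lower. Of 11 genes for the sterol receptors LXR and their other targets 2 rose: Pltp, which transfers phospholipid to HDL, from 11.7 ± 2.20 to 41.6 ± 17.5 FPKM, and Lpl, lipoprotein lipase, from 0.408 ± 0.183 to 1.64 ± 0.471 FPKM (SD, n = 3; adjusted p = 0.0280 and 0.0150). Lpl reached 1 FPKM in the 3 cadmium libraries and in no control, so it was tested only through the group where it was high. Of 10 genes of sterol supply 2 rose, Srebf2 and Hmgcs1 (adjusted p = 0.0469 and 0.0407), while on the deposited log2 values Srebf2 was not called (0.0743). All 4 calls were lost with the replicate block (adjusted p = 0.0516 to 0.0880). None of 6 HDL partners, 12 tested genes of bile acid handling, or 10 receptors and factors known to act on liver ABC genes was called on log2(FPKM + 1). On the deposited log2 values 2 genes of bile acid handling were called lower, Nr1h4 and Slco1a4 (adjusted p = 0.0356 and 0.0349), as were 2 of the receptors, Nr1i2 and Nr1i3 (0.0135 and 0.0293). There 4.98% of all genes were called lower.

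Known relatives and regulators of the called genes were measured beside them. Abca1 and Abcg5, textbook LXR targets like Abcg1, were not called. Of the 11 LXR genes listed above, 2 (Pltp and Lpl) were called higher and 9 were not called. Srebf1, among those 9, read 51.3, 82.7 and 117 FPKM in controls and 56.9, 37.9 and 36.6 FPKM in cadmium (adjusted p = 0.140). The part of LXR in the rise of Abcg1 was not tested. Nr1h4, the bile acid receptor FXR that drives Abcb11, read 23.6, 26.6 and 29.9 FPKM against 20.7, 23.5 and 20.2 FPKM, below every control; it was not called on log2(FPKM + 1) (adjusted p = 0.181) and was called lower on the deposited log2 values (0.0356). Nr1i2, the xenobiotic receptor PXR that acts on Abcb1a and Abcc2, read 16.1, 17.6 and 15.4 FPKM against 12.2, 13.0 and 11.8 FPKM, below every control but not called (adjusted p = 0.0568), and it was called on the deposited log2 values (adjusted p = 0.0135).

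Markers of the other cell types that a liver sample can hold differed in level, and none of those tested was called. None of 8 lymphocyte markers reached the filter, with sums of 0.651 to 1.51 FPKM in controls and 1.15 to 1.65 in cadmium and with Cd8a and Ncr1 under 0.1 FPKM throughout. Of 6 cholangiocyte markers 1 was tested and not called, with sums of 6.23 to 9.96 and 7.56 to 25.7 FPKM and with Krt7 and Cftr under 0.1 FPKM. Of 7 markers of pancreas, gut and kidney 2 were tested and not called, with sums of 12.8 to 19.2 and 13.4 to 18.0 FPKM, and Pnliprp1, Prss2 and Slc12a1 were listed at 0. The 4 red cell genes were not called, with sums of 124 to 442 and 172 to 562 FPKM.

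The authors' deposited table gave 5 ABC genes higher (Abca2, Abca8b, Abcc1, Abcg1 and Abcg3) and 7 lower (Abcb10, Abcb1a, Abcc2, Abcd3, Abcf1, Abcf2 and Abcg5) at an FDR of at most 0.05. The background in the authors' deposited table was 3.72% of all 34352 genes higher and 3.15% lower, 6.87% in either direction. Only 9908 of those genes passed the filter on low values, against 30 of the 46 ABC genes. The shares thus rest on sets of unlike level, and no excess of ABC genes is read from them. In the authors' deposited table Abcb1a had the smallest FDR of the 46, 2.82e-08 at a log2 fold change of -0.85, then Abcc1 at 0.000811 and Abcc2 at 0.000964. The test behind those values is not given in the sources used here. Abca2, Abca8b, Abcg1 and Abcb1a, the genes called on log2(FPKM + 1), are all among them.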

How the data were processed

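Liver RNA of 6 libraries was analysed, 3 control and 3 cadmium. The first table deposited by the authors holds FPKM for 55335 genes, and the second gives log2 values and gene symbols for 34352 genes beside the p-value, FDR and log2 fold change of a test by the authors. The tools in the submitters' processing notes are STAR 2.7.1a, DESeq2 4.1.0, cutadapt 1.1.8, MACS2 2.1.1 and SAMtools 1.3.1, with the mm10 build and no stated roles. For the counter, the annotation release and the test no name is given in the sources used here. Undoing log2 and subtracting 1 gave whole multiples of 1 step per library, as read counts divided by a size factor do, for 100% of values within 0.05 of a read. These recovered reads set the depth, 42115960 to 68587128 per library.

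limma 3.58.1 in R 4.3.3 (variance trend, robust) was run on log2(FPKM + 1) for 9908 genes, those reaching 1 FPKM in 3 or more libraries, two-sided, with Benjamini-Hochberg adjustment over all of them and a threshold of 0.05. Fold changes on this scale understate those of low genes. Genes with at least 10 reads in 3 libraries entered limma-voom. The replicate block is the labelled batch, which pairs the libraries. On log2(FPKM + 1) it leaves each log2 fold change as it was and leaves fewer degrees of freedom for the error. With it the SE was 0.0976 for Abca8b, 0.0940 for Abcg1 and 0.0917 for Abcb1a, against 0.102, 0.101 and 0.0978 without it. For Abca2 it was 0.170 against 0.142. Deviations from the group means of same-numbered libraries correlated at -0.21, -0.23 and -0.021, against -0.10 to 0.28 for other pairs. The script was tested on simulated data. Gene coordinates are GENCODE M21 (mm10), and promoters are RefSeq's. Values are given in every library for called members and for the transporters known in liver, and of other lists for called genes and a few regulators named after their values were seen. The members and lists were chosen with earlier results of these data known. Values of 2 of the 46 genes are counted but not reported here.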

Additional observations from a re-analysis of the deposited data

How the results depend on the processing

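The 4 calls on log2(FPKM + 1) did not hold in every setting, and Abca2 kept its call least often and Abcb1a most often. Abcb1a was also called on the deposited log2 values (limma adjusted p = 0.00686) and with voom (0.00879, and 0.0211 with the replicate block). With 3 genes called higher and 1 lower, the counts under other settings were as follows. Without a filter both were 0, beside 0.0902% and 0.0175% of 34351 genes tested, and the cause of the loss was not tested. Abcb1a then had an adjusted p of 0.102 and Abca8b of 0.0847 in limma. There 10 of 46 ABC genes, and 16.4% of all, had an unadjusted p of at most 0.05 in limma. The count higher was 1 with the filter at FPKM 0.1 (Abca8b, beside 3.2% of all genes), with quantile normalization (Abca8b, 3.5%), on the deposited log2 values (Abcg1, 3.85%) and with voom (Abcc1, none of the 3; 2.62%). It was 2 with upper quartile scaling (Abca8b and Abcg1, 5.15%), 0 with median-of-ratios scaling (3.9%) and 0 with the replicate block (1.86%). The count lower was 3 on the deposited log2 values (Abcb1a, Abcc2 and Abcf2, 4.98%) and 0 with the replicate block on log2(FPKM + 1) (0.646%). Leaving out 1 library gave 0 to 1 higher and 0 to 1 lower (0.787% to 5.44% and 0.232% to 2.44% of all genes), and leaving out control replicate 1 and cadmium replicate 2 together, chosen after seeing the data, gave 1 and 0 (4.82% and 2.46%). Over 15 settings the call was kept in 1 for Abca2, 6 for Abca8b, 8 for Abcb1a and 4 for Abcg1, and the direction of these 4 was kept in all. The replicate block changed no other call among the 30 genes tested on log2(FPKM + 1).

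Small differences that were never called changed sign, and the cause was not tested. With quantile normalization the log2 fold change was -0.026 for Abca6, -0.061 for Abcf3 and -0.049 for Abcg2. With upper quartile scaling it was -0.0014 for Abca6, -0.0068 for Abcc3, -0.057 for Abcf3 and -0.0047 for Abcg2. With median-of-ratios scaling it was -0.051 for Abca6, -0.019 for Abcb4, -0.057 for Abcc3, -0.10 for Abcf3 and -0.041 for Abcg2. On the deposited log2 values it was -0.11 for Abca6, -0.079 for Abcb4, -0.12 for Abcc3, -0.17 for Abcf3 and -0.12 for Abcg2, and with voom -0.11, -0.085, -0.12, -0.18 and -0.12. Without both libraries that stood apart it was -0.0080 for Abca6, -0.12 for Abcb4, -0.11 for Abcc3 and -0.0084 for Abcf3. Over the fits that left out 1 library, it ran from -0.18 to 0.090 for Abca1, -0.053 to 0.033 for Abca7, -0.10 to 0.28 for Abcb4, -0.033 to 0.19 for Abcc3, -0.085 to 0.067 for Abcf3, -0.023 to 0.15 for Abcg2 and -0.082 to 0.064 for Abcg8. Of the 16 genes under the filter, 9 had reads enough for voom, and the 7 under 0.1 FPKM were not tested there.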
